A study of Mus musculus with 8 samples.

Results

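Piezo, acid-sensing (ASIC) and HCN channels let sensory neurons respond to force and acid and set how readily they fire. The results below cover 9 genes matched by symbol, of 48315 symbols in all: Piezo1, Piezo2, Asic1, Asic2, Asic3, Stoml3, Hcn2, Hcn3 and Hcn4. All 9 were found, and 8 of them passed the filter of a mean of at least 1 CPM (reads per 1000000 reads assigned to genes); Stoml3 did not. The values are ribosome footprints of dorsal root ganglia (DRG), which hold the cell bodies of sensory neurons, in 8 libraries. The mice carry the strain label SW and the genotype label WT, and all had saline as a control, so no treatment was compared. The labels name 4 libraries male and 4 female, with numbers 1 to 4 in each, and give no age. They do not say whether libraries came from separate or pooled animals, so p-values may measure technical spread alone.

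Piezo channels are very large proteins that open when the membrane is stretched. In mice Piezo2 carries light touch and body position sense in sensory neurons, whereas Piezo1 is best known in blood vessels and red cells. ASICs are sodium channels of 3 subunits that open when the outside turns acidic, and ASIC3 is known for its place in DRG neurons that sense muscle and tissue acid. HCN channels open when the membrane becomes more negative and carry the pacemaker current, which cyclic AMP strengthens. Stoml3 is a stomatin-like membrane protein that, in mice, tunes the force sensitivity of touch neurons.

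Libraries held between 3697686 and 12714552 assigned reads, so 3 reads, taken as the floor of detection for counting error only, were worth between 0.236 and 0.811 CPM. Y-linked genes and Xist went against the label in 3 libraries, those labelled female 1, female 3 and male 1. Female 1 and female 3 were also unusually close to each other: 1.06% of coding genes differed between them at a chi-square p below 0.001, against 9.40% to 31.8% in the other 27 pairs. By Pearson correlation of log2 values the pair, at 0.9887, came just after female 3 and male 3, at 0.9891. Because of the libraries against their label, directions below are between labels, and the leading result is also given without those 3 libraries. Sensory neuron markers fitted the labelled tissue, with Prph, Avil, Isl1, Pou4f1 and Scn10a summing to between 2652 and 4408 CPM. Markers of Schwann cells (13107 to 19111 CPM), fibroblasts (10121 to 15202 CPM) and skeletal muscle (2376 to 6799 CPM) were present as well. Spinal cord markers summed to 461 CPM in male 2 and to between 167 and 229 CPM in the other libraries. Male 2 also had the highest values of Asic1, Asic3, Hcn2 and Hcn4, but not of the other members. The part of spinal cord tissue in them was not tested.

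Because footprints are short, the coding sequences were first searched for stretches that 2 genes share, since a read from such a stretch cannot be given to either. Fragments of 28 to 34 nt had been selected. Of the 28 nt windows in each coding sequence, none of the 7614 of Piezo1, the 8445 of Piezo2, the 1563 of Asic3 and the 834 of Stoml3 occurred in a transcript of another gene. Asic1 and Asic2 shared 5 windows, which is 0.303% and 0.301% of theirs, with each other. Hcn2, Hcn3 and Hcn4 had 0.429%, 0.476% and 0.280% of their windows in another of the 3. The 4 stretches are printed below from GENCODE M21 coding transcripts (GRCm38), 5′ to 3′ on the coding strand, with the shared bases in capitals and 14 neighbouring bases on each side in lower case.
Asic1: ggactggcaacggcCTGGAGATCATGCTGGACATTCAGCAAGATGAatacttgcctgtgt
Asic2: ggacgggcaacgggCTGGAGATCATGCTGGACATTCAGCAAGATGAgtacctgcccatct
Hcn2 with Hcn3: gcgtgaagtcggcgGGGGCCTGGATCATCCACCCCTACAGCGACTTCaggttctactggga
Hcn3 with Hcn2: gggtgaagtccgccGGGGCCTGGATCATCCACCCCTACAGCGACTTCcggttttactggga
Hcn2 with Hcn4: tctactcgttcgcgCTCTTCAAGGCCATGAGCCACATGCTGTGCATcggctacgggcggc
Hcn4 with Hcn2: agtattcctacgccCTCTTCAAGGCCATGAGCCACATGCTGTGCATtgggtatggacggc
Hcn3 with Hcn4: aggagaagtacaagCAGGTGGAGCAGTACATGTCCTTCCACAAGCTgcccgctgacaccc
Hcn4 with Hcn3: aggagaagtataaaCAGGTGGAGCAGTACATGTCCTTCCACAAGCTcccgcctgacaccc

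The ASIC stretch was 32 nt long and lies at chr15:99694787-99694818 (plus strand) in Asic1 and at chr11:80971490-80971521 (minus strand) in Asic2. The Hcn2 and Hcn3 stretch was 33 nt long, at chr10:79717185-79717217 (plus) and chr3:89159787-89159819 (minus). The Hcn2 and Hcn4 stretch (32 nt) lies at chr10:79728926-79728957 (plus) and chr9:58855558-58855589 (plus). That of Hcn3 and Hcn4 (32 nt) lies at chr3:89150464-89150495 (minus) and chr9:58857723-58857754 (plus). Every one of them lies within 1 coding exon. The longest run that Piezo1 shares with Piezo2 was 17 nt, shorter than a selected fragment, and the longest that Asic3 shares with Asic1 or Asic2 was 15 nt. The search used exact matches to transcripts in the sense direction alone. It therefore could not see the bases, given below, that Piezo1 and Hcn3 share with genes on the other strand. The sources used here do not give how the authors counted mismatched or repeated matches.

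Coding lengths ran from 861 to 8472 bases, so levels of different genes were compared per kilobase of coding length. On GRCm38, Piezo1 spans chr8:122481698-122551329 (minus strand) with 51 coding exons and 7641 coding bases. Piezo2 spans chr18:63010213-63387183 (minus) with 54 coding exons and 8472 coding bases, the longest of the 9. Asic1 spans chr15:99670368-99701130 (plus, 1677 coding bases), Asic2 chr11:80880169-81968457 (minus, 1689) and Asic3 chr5:24413392-24417835 (plus, 1590). Hcn2 spans chr10:79716634-79736108 (plus, 2589), Hcn3 chr3:89146074-89160196 (minus, 2337), Hcn4 chr9:58823412-58863175 (plus, 3603) and Stoml3 chr3:53488653-53508502 (plus, 861). Exons of Piezo1 share 2441 bases with Ctu2 on the other strand, which was at 9.42 ± 1.35 CPM (SD, n = 8), and exons of Hcn3 share 711 bases with Pklr, at 2.98 ± 0.832 CPM. The sources used here do not give whether counting used the strand, so reads from those bases could belong to either gene.

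Asic3 and Piezo2 had the highest footprint densities of the 9 genes, and Piezo1 and Stoml3 the lowest. Asic3 was at 74.8 ± 9.58 CPM per kilobase (SD, n = 8) and Piezo2 at 72.3 ± 7.23, above 87.5% and 87.1%, respectively, of the 14082 coding genes that passed the filter. Asic3 was the higher of the pair in 6 of 8 libraries, so these neighbours were not apart beyond their spread. Piezo2 exceeded Asic2, the next, in 8 of 8 libraries and by 3.37-fold in the mean.

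Asic2 (21.4 ± 2.71 CPM per kilobase), Asic1 (20.0 ± 2.69) and Hcn2 (16.8 ± 2.49) formed a middle group. Asic2 was above Asic1 in 5 of 8 libraries and Asic1 above Hcn2 in 7 of 8, so neither pair was apart. Hcn2 exceeded Hcn3 in 8 of 8 libraries, 2.87-fold in the mean. Hcn3 (5.87 ± 0.633) was above Hcn4 (4.64 ± 0.987) in 7 of 8 libraries, and Hcn4 above Piezo1 (2.93 ± 0.370) in 8 of 8. Piezo1 density was above that of 16.7% of coding genes.

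**Figure D1:**
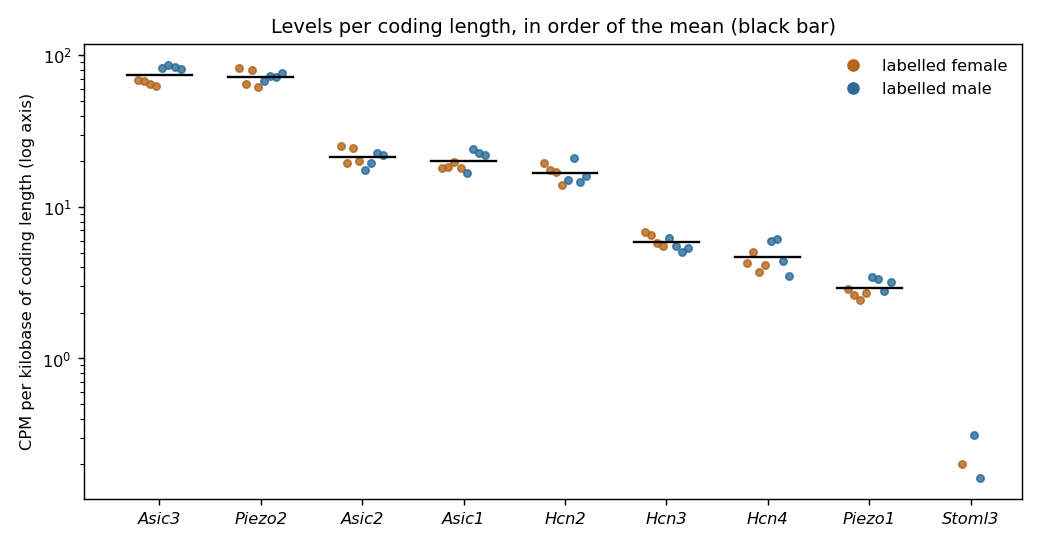
CPM per kilobase of coding length (log axis) of the 9 channel genes, in order of the mean, with 1 point per library and the mean as a black bar. Asic3 and Piezo2 overlap near the top, Stoml3 reaches at most 0.314, and its 5 libraries at 0 are not drawn and it has no mean bar.

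Piezo2, the touch channel, took far more reads than any other of the 9 genes. It was at 695, 545, 679 and 524 CPM in the libraries labelled female 1 to 4 and at 576, 616, 614 and 648 CPM in male 1 to 4. Its mean of 612 ± 61.3 CPM (n = 8) put it at rank 159 of 14082 coding genes by reads, but at rank 1822 per kilobase. The highest library exceeded the lowest 1.33-fold. Female 1 and female 3, which are the pair close to each other, were the 2 highest of all 8 libraries, and female 2 and female 4 the 2 lowest, with the 4 male libraries between them. The summed sensory neuron markers were also highest in female 1 and female 3, at 4408 and 4239 CPM against at most 3459 CPM elsewhere, and so were skeletal muscle markers, at 6799 and 6767 CPM against at most 5428 CPM. Their part in the Piezo2 values was not tested. In bulk tissue, more cells of a type and more footprints per cell cannot be told apart.

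Piezo1 was at 22.0, 20.0, 18.6 and 20.6 CPM in female 1 to 4 and at 26.5, 25.7, 21.2 and 24.3 CPM in male 1 to 4. Female 1, the highest of its label, lay above male 3, the lowest of its own, so the labels overlapped in that pair of libraries. Piezo2 density exceeded Piezo1 density by between 19.6-fold (male 1) and 32.9-fold (female 3), 25.1 ± 4.18-fold in the mean (n = 8). Piezo2 therefore made up 96.1% ± 0.594 of the density of the 2 Piezo genes. Endothelial markers, whose cells are known for Piezo1, summed to between 324 and 378 CPM in the female and between 344 and 434 CPM in the male libraries; their part in the Piezo1 values was not tested.

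Stoml3 was barely detected. It had 4 reads in all of 63366982, listed at 0.174 CPM in female 3, 0.270 CPM in male 1 and 0.140 CPM in male 2 and at 0 in the other 5 libraries. All 8 values lie under the floor of 3 reads. Pooled over libraries this is 0.0631 CPM, with an exact Poisson 95% interval of 0.0172 to 0.162 CPM that covers counting error only. Its relatives were well covered: Stom, the founding stomatin, was at 60.6 ± 6.74 CPM per kilobase, Stoml1 at 51.5 ± 8.18 and Stoml2, a mitochondrial protein, at 29.9 ± 5.43 (n = 8).

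Asic3 led the ASIC genes. It was at 109, 108, 103 and 100.5 CPM in female 1 to 4 and at 131, 138, 133 and 129 CPM in male 1 to 4. Every library labelled female was below every library labelled male. Asic1, the subunit found across the nervous system, was at 30.2, 30.6, 33.3 and 30.4 CPM in the female and at 28.1, 40.5, 38.3 and 37.2 CPM in the male libraries. Male 1 was the lowest of all 8 and the other 3 male libraries the highest, so in CPM the labels overlapped through male 1 alone. Asic2, whose subunits join other ASICs and alter their acid response, was at 42.8, 33.2, 41.5 and 33.9 CPM in the female and at 29.5, 33.1, 38.4 and 37.2 CPM in the male libraries. As for Piezo2, female 1 and female 3 were the highest 2 libraries for Asic2.

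By density, Asic3 made up 64.2% ± 3.44 of Asic1, Asic2 and Asic3 together, Asic2 18.6% ± 2.95 and Asic1 17.2% ± 1.34 (n = 8). The Asic3 share ranged from 59.4% to 70.6%. Of their relatives, Asic4 had 8 reads over all libraries (0.126 CPM pooled, Poisson 95% interval 0.0545 to 0.249), with 1 library at the floor. Asic5 had 0 reads in all 8, for which the same Poisson interval reaches 0.0582 CPM and 3 pooled reads would be 0.0473 CPM.

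**Figure D2:**
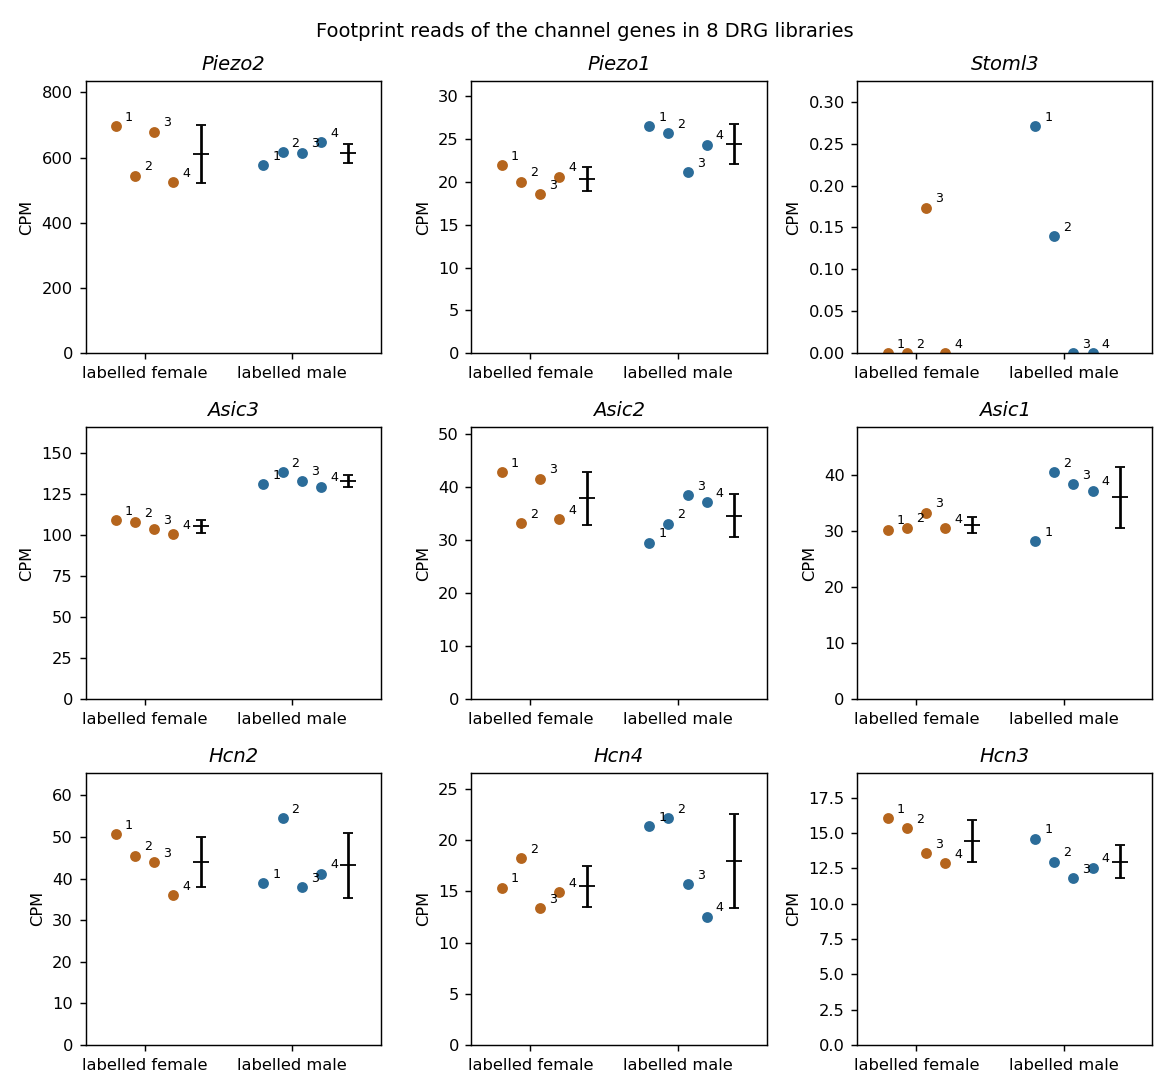
CPM of each of the 9 genes in every library, numbered by replicate and split by labelled sex, with the mean and SD (n = 4) beside the points except for Stoml3. The labels do not overlap for Asic3, at 100.5 to 109 CPM in the female and 129 to 138 CPM in the male libraries, and they overlap for the other 8 genes.

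Hcn2, which in mice drives firing of nociceptors in inflammation, was the most abundant of the 3 HCN genes followed here. It was at 50.6, 45.5, 43.9 and 35.98 CPM in the female and at 38.9, 54.5, 37.9 and 41.1 CPM in the male libraries. The male range enclosed all female values but that of female 4. Hcn3 was at 16.1, 15.3, 13.5 and 12.9 CPM in the female and at 14.6, 13.0, 11.8 and 12.5 CPM in the male libraries. Hcn4, known as the main pacemaker channel of the heart, was at 15.4, 18.3, 13.4 and 14.9 CPM in the female and at 21.4, 22.2, 15.7 and 12.5 CPM in the male libraries. Male 1 and male 2 had the highest Hcn4 values of all and male 4 the lowest.

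Of the density of these 3 genes, Hcn2 held 61.5% ± 3.26, Hcn3 21.6% ± 2.02 and Hcn4 17.0% ± 2.80. Within a library, Hcn2 density was 2.88 ± 0.421-fold that of Hcn3 and 3.73 ± 0.758-fold that of Hcn4 (SD, n = 8). The Hcn2 to Hcn4 ratio ran from 2.54 in male 1 to 4.59 in female 1, and the labels overlapped. Hcn4 stood at 0.795 ± 0.171 of Hcn3 and was the higher of the pair in male 2 alone, at 1.11.

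**Figure D3:**
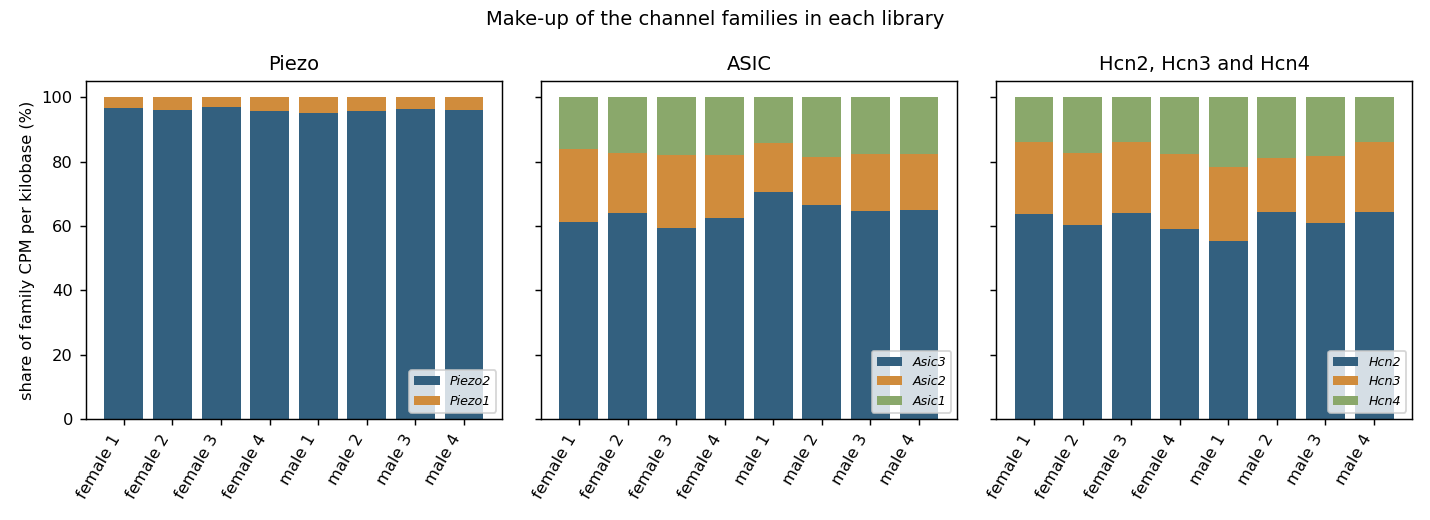
Share of the summed CPM per kilobase of each family held by its genes, 1 bar per library, for the Piezo genes, Asic1 to Asic3, and for Hcn2, Hcn3 and Hcn4. Piezo2, Asic3 and Hcn2 held the largest share in all 8 libraries.

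How far values varied between libraries beyond counting error differed among the genes. Hcn3, with between 54 and 156 reads in a library, had a coefficient of variation of 10.8% against 10.3% expected from counting alone, so its differences between libraries were not detectable at this depth. Piezo1 varied by 12.7% against 8.16%, and Hcn4 by 21.3% against 9.46%, the widest of the 8 genes above the filter. Piezo2, with between 2131 and 7819 reads, varied by 10.01% against 1.53%. Asic3, with between 484 and 1689 reads, varied by 12.8% against 3.501%.

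The comparison of labelled sexes asked whether footprint levels of the channel genes differed between the libraries labelled male and female. Footprints alone do not separate the amount of a transcript from how much ribosomes read it. None of the 8 genes tested passed limma's adjusted p of 0.05, and of all 15720 genes tested 0% passed; 2099 (13.4%) had an unadjusted p below 0.05. A fit that takes the replicate number as a block called 27 genes (0.172%), none of them among the 9. Asic3 came nearest. It was at 105 ± 3.88 CPM in the female and 133 ± 3.87 CPM in the male libraries (SD, n = 4), 20.9% lower in female, with a log2 fold change of -0.33 (SE 0.098, 95% interval -0.55 to -0.12, limma adjusted p = 0.372, unadjusted p = 0.00589). An unadjusted p below 0.05 in this direction was found for 1 of the 8 members and for 1.41% of all genes. Fold changes are differences of mean log2(CPM + 1), female minus male, and slightly understate those of low genes.

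Asic3 was lower in all 4 female libraries than in any male library, which held for 1 of the 8 members and, in the same direction, for 1.13% of all genes tested. With female 1, female 3 and male 1 left out, the log2 fold change was -0.36 (limma adjusted p = 0.9995). Over the 22 alternative fits it ranged from -0.67 to -0.31, with limma adjusted p from 0.0623 to 0.9995 and none passing.

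Fibroblast markers had the same direction as Asic3 between labels, at 10121 to 10985 CPM in the female and 11110 to 15202 CPM in the male libraries, and were the only 1 of 14 marker lists whose labels did not overlap. Nociceptor markers summed to between 2671 and 3176 CPM in the female and between 2558 and 3022 CPM in the male libraries, and markers of myelinated mechanoreceptors and proprioceptors to between 3748 and 4086 CPM and between 3601 and 4598 CPM. Pan-neuronal markers were at 19258 ± 1955 CPM in the female and 15416 ± 3278 CPM in the male libraries. Per 1000 pan-neuronal reads, Asic3 was at 5.49 ± 0.496 in female and 8.89 ± 1.80 in male libraries (SD, n = 4). This was not particular to Asic3: on that scale every member was lower in female, such as Piezo2 at 31.6 ± 1.43 against 41.0 ± 7.73. The part of these markers in the Asic3 difference was not tested.

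Ratios within a library do not depend on how libraries are scaled. The density of Asic3 over that of Asic2 lay between 2.64 and 3.45 in female and between 3.68 and 4.72 in male libraries, without overlap. For 1.13% of genes the ratio to Asic2 was lower in every female library in the same way. Asic1 over Asic2 did not overlap either, at 0.711 to 0.929 in female and 0.961 to 1.23 in male libraries. Asic3 over Asic1 did overlap, at 3.28 to 3.80 and 3.601 to 4.91; for 0.153% of genes the ratio to Asic1 was lower in every female library. These ratios were chosen after the values had been seen, and both without overlap share Asic2, which was highest in female 1 and female 3.

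**Figure D4:**
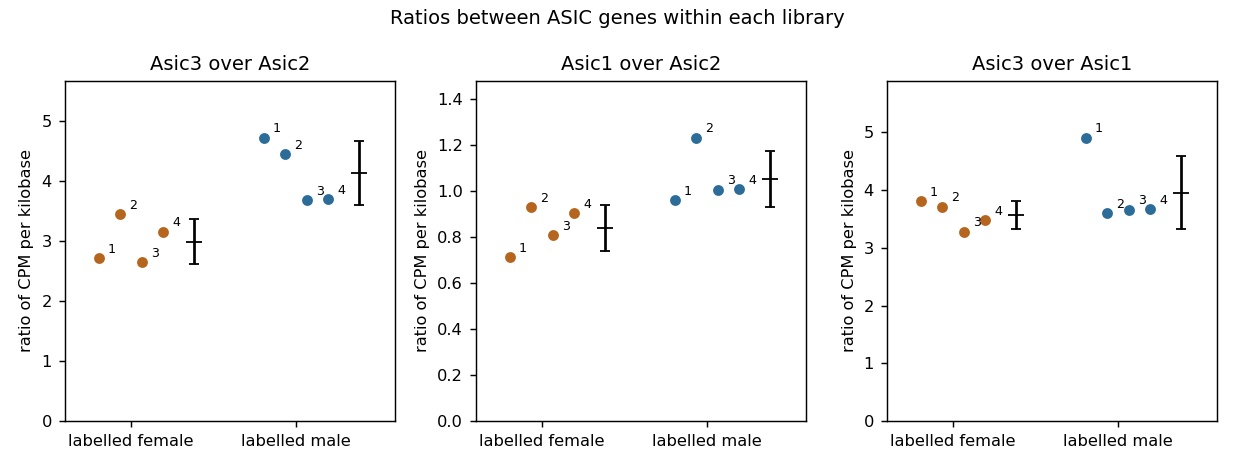
Ratios of CPM per kilobase between ASIC genes in each library, numbered by replicate, with the mean and SD (n = 4) of each labelled sex. Asic3 over Asic2 (at most 3.45 in female, at least 3.68 in male) and Asic1 over Asic2 do not overlap between labels, and Asic3 over Asic1 does.

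For the other 7 genes the labels overlapped in CPM and no fit gave a call. Piezo1 was at 20.3 ± 1.39 CPM in the female and 24.4 ± 2.34 CPM in the male libraries (n = 4; log2 fold change -0.25, 95% interval -0.53 to 0.022, limma adjusted p = 0.384). Asic1 had a log2 fold change of -0.19 (95% interval -0.49 to 0.11) and Hcn4 one of -0.17 (-0.59 to 0.24). The Asic1 result depended on scaling: by the median ratio it was at -0.35 (limma adjusted p = 0.356, unadjusted p = 0.00331). In that fit 1073 of 15716 genes had an unadjusted p below 0.05 in the same direction. Of the 22 alternative fits, 7 gave Asic1 an unadjusted p below 0.05, 8 Piezo1 and 1 Piezo2. It was 0 for Asic2, Hcn2, Hcn3 and Hcn4. Asic2 was at 0.13 (-0.18 to 0.43) and Hcn3 at 0.14 (-0.15 to 0.44). Piezo2 was at -0.017 (-0.30 to 0.27) and Hcn2 at 0.033 (-0.30 to 0.37), and both intervals allow a difference of either sign.

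Over the 8 genes, 5 log2 fold changes were below 0, against 28.3% of all genes tested, and their median was -0.096. The median of all genes was 0.15, and scaling by the median ratio of genes brought it to -0.00036. Relative to the median of all genes, Asic3 lay at -0.48, Piezo1 at -0.40, Asic1 at -0.34, Hcn4 at -0.32, Piezo2 at -0.16, Hcn2 at -0.11, Asic2 at -0.019 and Hcn3 at -0.0020. With the libraries scaled to pan-neuronal genes, Asic3 was at -0.67 and Piezo1 at -0.58, and neither passed (limma adjusted p = 0.308 for both). This scaling also moved the median of all genes to -0.16. Relative to that median, Asic3 was at -0.51 and Piezo1 at -0.42. Scaling by 1 factor per library shifts all genes nearly alike, so these relative values could hardly change and are no further test.

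**Figure D5:**
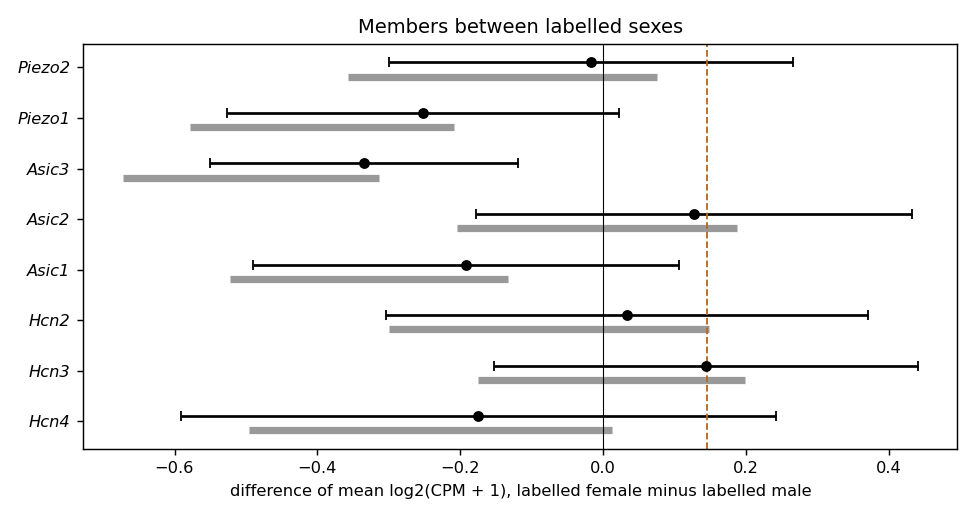
Difference of mean log2(CPM + 1), labelled female minus labelled male, of 8 genes with the 95% interval from limma (black) and the range over 22 alternative fits (grey). The dashed line marks the median of all genes, 0.15, and Asic3 has the only interval that does not include 0.

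Genes that work with these channels were followed as a list of 33, of which 31 were found and 24 tested. None passed over all genes (0% of all genes did), 4 had an unadjusted p below 0.05 against 13.4% of all genes, and 2 did not overlap between labels against 4.55%. The 4 were Anxa6, S100a10 and Kctd3, higher in female as were 11.9% of all genes, and Tmem63c, which was lower. Of the 24, 16 were higher and 8 lower in female by sign, with a median log2 fold change of 0.13, where 28.3% of all genes were lower and the median of all genes was 0.15.

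Among mechanically gated or force-related channels, Tmem63c was the densest at 98.5 ± 13.0 CPM per kilobase (SD, n = 8), above Piezo2 in the mean. Tmem63b, at 90.0 ± 15.0, was also above Piezo2 in the mean, and its labels overlapped. TMEM63 proteins are osmotically and mechanically activated channels. Tmem63c was 1 of the 2 genes without overlap, at 213 ± 18.7 CPM in the female and 260.5 ± 21.3 CPM in the male libraries (n = 4; log2 fold change -0.29, limma adjusted p = 0.372). The other was the potassium channel gene Kcnk10, at 6.02 ± 0.333 and 4.98 ± 0.204 CPM (log2 fold change 0.23, limma adjusted p = 0.439); 3.43% of all genes were higher in female without overlap. Tmem63b, Kcnk10, Tmc1, Tmc2, Kctd3, Flna, Pex5l, Kcne2, Stoml1 and Stoml2 were picked from the list after their values had been seen. Tmc1 and Tmc2, channels of inner ear hair cells, had means of 0.448 and 0.116 CPM and were under the filter.

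Of genes known to modulate Piezo channels, Anxa6, an annexin that binds membranes, was the densest at 334 ± 116 CPM per kilobase. Of ASIC partners it was S100a10, a small adaptor that brings channels to the membrane, at 1140 ± 230 CPM per kilobase, a value that rests on a short coding sequence. Of HCN partners it was Nedd4l, a ubiquitin ligase, at 50.6 ± 19.2, followed by the scaffold gene Flna at 47.7 ± 4.79 and by Pex5l, which encodes the HCN subunit TRIP8b, at 44.7 ± 8.41. Kcne2, a small subunit reported to join HCN channels, had a mean of 0.0338 CPM.

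The genes most like the best-read channel of each family were sought among the 9212 coding genes whose mean reached 10 CPM, by the SD of the log2 ratio over the 8 libraries. For Piezo2 they were Senp3 (SD 0.049), Tspan13 (0.050) and Cacna1b, the N-type calcium channel (0.054), where the median gene had 0.26. For Asic3 they were Clstn2, a synaptic cadherin (0.045), Sema7a (0.065) and Tgfbr3 (0.067), against a median of 0.36. Clstn2 ran from 103 to 136 CPM, with a log2 fold change of -0.32 between labels. For Hcn2 they were Sidt2 (0.061), Irf2bp2 (0.083) and Tle3 (0.086), against 0.28. With 8 libraries, 2 of them close to each other, a small SD says only that the values ran side by side. For each channel these are the 3 smallest of 9212 SDs, and some lie under what counting error alone would give. Senp3, at 14.6 CPM, was read about as sparsely as Hcn3, which was at 13.7 CPM with 10.3% expected from counting. Likeness beyond a lucky pick was therefore not shown.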

How the data were processed

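Per the labels' protocols, ribosome-bound RNA from 8 DRG samples was isolated on columns and depleted of ribosomal RNA, and 28 to 34 nt fragments were selected. Per the submitters' processing notes, the tools include Cufflinks 2.2.1, Bowtie2 2.2.9, TopHat2 2.1.1 and FastQC 0.11.5, and the builds GRCm38.p4 and mm10; the sources used here give neither their roles nor the annotation. The authors deposited 48431 rows per table under the name TPM, but the deposited values are CPM: columns sum to 1000000, and 94.4% to 96.4% of values above 0 are whole multiples (within 0.01) of 1 step per library. Reads are values divided by that step, rounded. Piezo1 was not whole in 6 libraries, and Piezo2 in female 4 and male 2 alone, where 7 of the 9 members were whole. A stricter check of low values did not return whole reads, so no count model was fitted.

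Rows of 1 symbol were summed, and lengths and positions came from GENCODE M21, which held 99.2% of the identifiers. The comparison used limma 3.58.1 (R 4.3.3) on values log-transformed to base 2 after adding 1 CPM, kept genes averaging 1 CPM or more, and had an intensity trend and two-sided Benjamini-Hochberg adjusted p over all genes. Python 3.11.15, pandas 2.3.3 and scipy 1.17.1 served the rest. The script was tested on simulated data of 15541 genes, where it recovered 71% of 2-fold and 97% of 4-fold changes with 8 false calls. The changed genes were drawn only from those with a mean well above the filter, so recovery of the sparsest genes was not simulated. Smaller changes were not simulated either. The simulated libraries were independent, without the close pair, the likeness by number or the libraries against their label. Libraries of the same number deviated together (correlations across genes of 0.288, 0.492, 0.531 and 0.592), although the labels do not say what the number stands for. By Pearson correlation of log2 values, female 2, 3 and 4 were closest to the male library of their number (0.982, 0.989 and 0.977). Female 1 was closer to male 3 (0.982) than to male 1 (0.964). The main fit took no pairs, so its intervals and p-values leave the likeness by number out. The number served as a block in alternative fits only. The members and gene lists were chosen with earlier results of these data known. Named were all 9 members, the called or densest gene of each partner group, 2 channel relatives (Asic4 and Asic5) and the 3 genes most like each family's best-read member. One gene of the partner list is not reported here.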

Additional observations from a re-analysis of the deposited data

Results flagged for a closer look

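Asic1 in the library labelled female 3 stood apart from the other female libraries: it was at 33.3 CPM, and the next highest was 30.6 CPM, a gap of 0.875 of the range of the 4. The value lies within the male range of 28.1 to 40.5 CPM. It rests on 383 reads, against 261 in female 2, the next highest, and counting alone gives Asic1 a variation of 6.47%. The gap is therefore of the size of counting error. Female 3 also goes against its label and is close to female 1, the lowest of the 4 at 30.2 CPM. Chance alone sets about 1 group in 20 apart in this way, and 8 genes were looked at in both labels.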

How the results depend on the processing

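No member and no partner gene passed under any of the 22 alternatives. The count of all genes passing went from 0 to 27 with the replicate block and to 5 without the libraries against their label, of which 4 are the Y-linked genes that marked those libraries; it stayed at 0 in the other 20 fits, those without 1 replicate included. The block changed no call of a member; Asic3 had a limma adjusted p of 0.216 with it. Piezo1, Asic1 and Asic3 kept a negative sign in all 22 fits. Signs turned, never with a call, under median-ratio scaling (Asic2 -0.034, Hcn2 -0.13, Hcn3 -0.011, and the same with the replicate block and this scaling together), TMM scaling (Asic2 -0.0023, Hcn2 -0.097), protein-coding genes alone (Hcn2 -0.065), scaling to pan-neuronal genes (Asic2 -0.20, Hcn2 -0.30, Hcn3 -0.18), quantile normalization (Asic2 -0.033, Hcn2 -0.13, Hcn3 -0.017), sample weights (Piezo2 0.075), the set without the libraries against their label (Asic2 -0.10, Hcn2 -0.12, Hcn4 0.013) and female 1 and female 3 averaged (Hcn2 -0.0020). With 1 replicate left out, Piezo2 ranged from -0.083 to 0.053 and Hcn2 from -0.036 to 0.15. Quantile normalization, the average and the block with scaling were chosen after seeing the data. The order per kilobase had 3 of 36 pairs of genes in another order with transcript in place of coding length and 6 with no length correction, where Piezo2 led and Hcn2 passed Asic2 and Asic1 in both; it was the same without any 1 library. By reads with no length correction, Hcn4 (22.5%) took more of the 3 HCN genes than Hcn3 (18.6%). The planned count models, and shares with further genes for the HCN family, were not run. Depth limits Stoml3, Hcn3 and Hcn4 most.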

Other observations

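Anxa6 and Nedd4l, both from the list of channel partners, were singled out after their values were seen. In female 1 and female 3, Anxa6 reached 1035 and 1013 CPM, and it lay between 437 and 702 CPM in the other 6 libraries. Nedd4l reached 232 and 242 CPM in that pair and lay between 93.5 and 167 CPM in the others. Piezo2 and Asic2 were also highest in these 2, whereas Asic3 was higher in all 4 male libraries than in either.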
